A study of Arabidopsis thaliana with 15 samples.

Results

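The shoot apex of Arabidopsis thaliana was profiled here as sorted cells and as protoplasts, on 15 Affymetrix arrays. The comparison covers 13 of the 15, chosen by their titles: the 11 arrays titled CLV3n, CLV3p, FILp or WUSp cells, set against the 2 arrays titled Protoplast Induced. There are 3 arrays of each of CLV3n, CLV3p and FILp, and 2 of WUSp. The comparison asks which genes stood on the same side of the Protoplast Induced level in all 4 sorted populations, that is, which differences went with being a sorted cell whatever the population. Plants were 24 days old, per the labels. The design text adds that CLV3n is free of the CLV3p cell type. Genotypes, reporter lines, agents and pooling of plants are not given in the sources used here, and that the Protoplast Induced arrays hold unsorted cells is read from their title. The 2 arrays titled Uninduced are in no test here. Their signals are given beside the others as the material that the titles set against Protoplast Induced.

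As background, a protoplast is a plant cell whose wall has been digested by enzymes. Wounding, wall digestion and handling are known to switch on early stress genes, such as those of zinc-finger and WRKY transcription factors. Sorting by flow cytometry then keeps cells with a fluorescent reporter, or those without it. A sorted sample thus holds a part of the mix of cells, and has a longer history of handling than the protoplasts it came from. CLV3 is the peptide signal of the stem cells at the tip of the meristem, WUS the homeodomain transcription factor of the organizing centre beneath them, while FIL, a YABBY protein, marks the abaxial face of young leaves and flowers. Plastids and mitochondria carry small genomes of their own, whose transcripts are measured by separate probe sets on the array. In such bulk samples, fewer cells of a type and less RNA per cell cannot be told apart.

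CLV3 was high in CLV3p and YABBY genes were high in FILp, while the name of WUSp could not be checked, since WUS has no probe set of its own in the probe table used here. CLV3 had geometric mean signals of 9.13, 876, 3.75 and 66.4 in CLV3n, CLV3p, FILp and WUSp, against 129 in Protoplast Induced and 98.1 in Uninduced. YAB3, a YABBY gene of young organs, had 166, 34.3, 396 and 33.5 in the same order, against 159.7 in Protoplast Induced. Neither gene lay on the same side of Protoplast Induced in all 4. Spearman correlations between arrays were taken over probe sets, and probe sets are no replicates. The 22 pairs of a sorted with a Protoplast Induced array had rho of 0.892 to 0.941, the 45 pairs of different sorted populations 0.920 to 0.957, and the 12 pairs within a group 0.952 to 0.982.

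Some control signals of the arrays moved with this comparison. The 25S ribosomal RNA control gave signals of 18406 to 36195 on the sorted arrays, 7892 and 7202 on the Protoplast Induced arrays and 8580.4 and 7181 on the Uninduced arrays. The poly-A spike controls had mean log2 signals of 6.78 to 8.48 on the sorted arrays, 9.42 and 8.72 on Protoplast Induced and 6.51 and 6.41 on Uninduced. Every sorted array thus lay above both Protoplast Induced arrays for the first control and below both for the second. The 3′ to 5′ log2 ratio of GAPDH, a sign of RNA length, ran from 2.59 to 4.57 on the sorted arrays and was 3.97 and 4.07 on Protoplast Induced, so it overlapped. Median signals were 155 to 187 on the sorted and 199 and 195 on the Protoplast Induced arrays. The hybridisation control bioC was under 500 on CLV3n 3, CLV3p 3 and the 3 FILp arrays and above it on the others, both Protoplast Induced arrays among them. The part of the 25S, poly-A and GAPDH signals in the differences below was not tested. For bioC and the median signal, alternative fits are given below. They use a block for low bioC, leave out the arrays of low bioC, or centre arrays on their median.

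**Figure D1:**
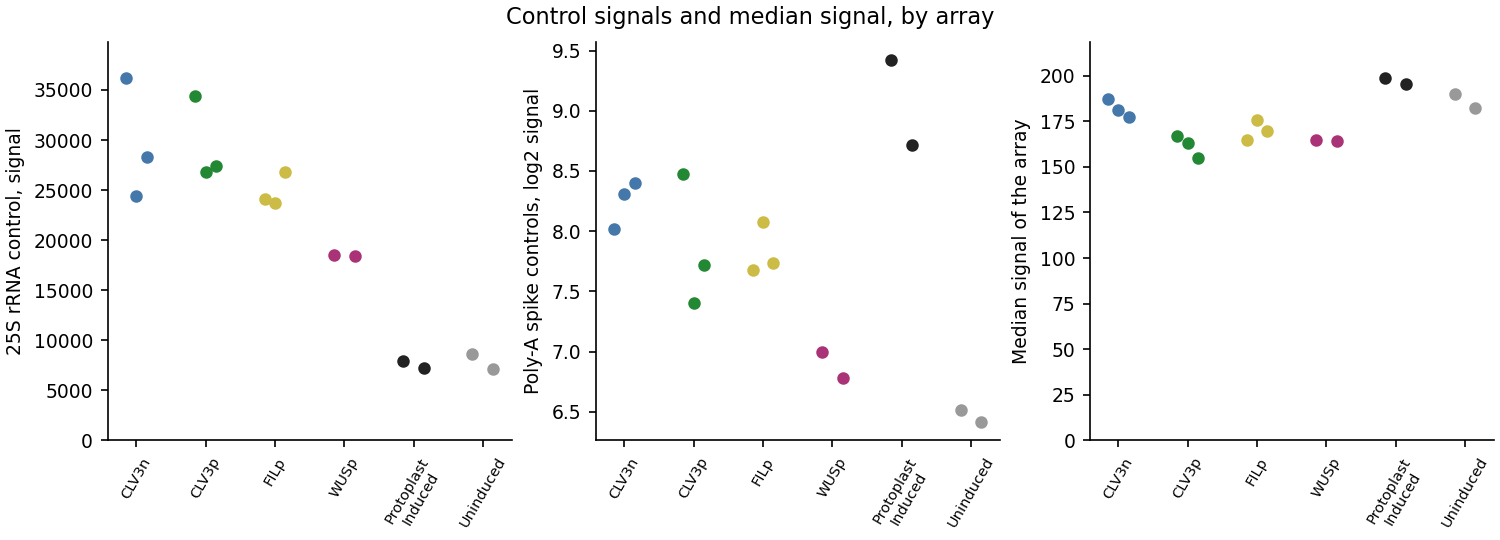
Signals of the 25S ribosomal RNA control (left), mean log2 signals of the poly-A spike controls (middle) and the median signal (right) by group, with 1 point per array. The 11 sorted arrays lie above both Protoplast Induced arrays in the left panel and below them in the middle and right panels.

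A total of 996 probe sets were higher and 924 lower than Protoplast Induced in all 4 sorted populations, which is 6.49% and 6.02% of the 15350 probe sets tested. A probe set counts as called where each of the 4 limma contrasts passed an adjusted p of 0.05 (Benjamini-Hochberg) in the same direction. The 4 contrasts share the same 2 Protoplast Induced arrays, so they are not independent, and any error of those arrays enters all 4. In the contrasts taken alone, CLV3n had 2420 probe sets higher (15.8%) and 2532 lower (16.5%). CLV3p had the most calls, with 3150 higher (20.5%) and 3480 lower (22.7%). FILp had 2467 higher (16.1%) and 2712 lower (17.7%). WUSp, with 2 arrays, had 2175 higher (14.2%) and 2602 lower (17.0%).

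**Figure D2:**
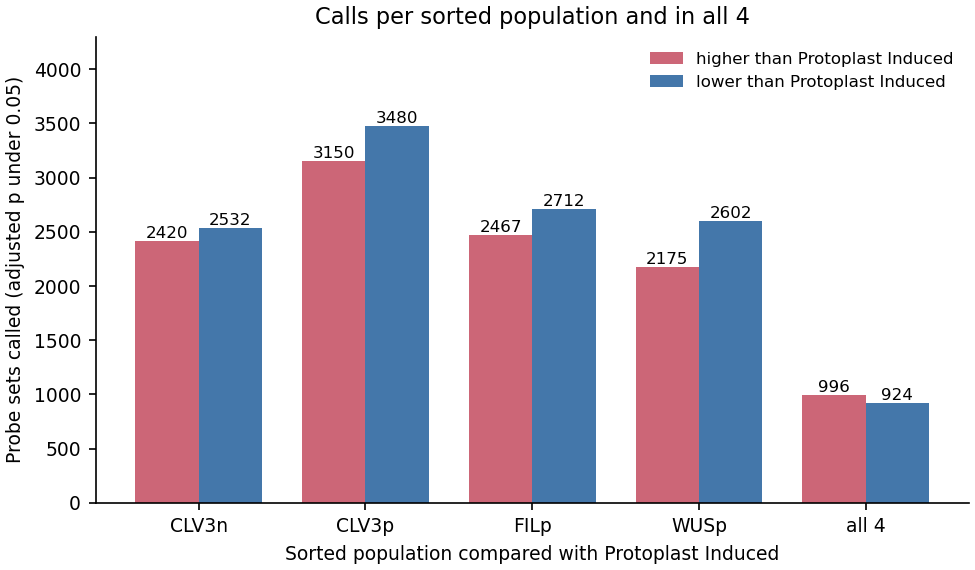
Number of probe sets called higher (red) or lower (blue) than Protoplast Induced (vertical axis) in each sorted population and in all 4 at once. The shared calls number 996 and 924, fewer than in any population alone.

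The size of the shared shifts in each direction depended on scaling. The median log2 difference, as the mean of the 4 populations at equal weight minus Protoplast Induced, was 1.14 over the 996 probe sets called higher and -1.46 over the 924 called lower. For the same probe sets the medians were 1.36 and -1.24 with arrays centred on their median, and 1.22 and -1.40 after quantile normalization. The change was at least 2-fold in every population for 372 of those called higher and 480 of those called lower, and at least 4-fold for 59 and 158. All 11 sorted arrays lay above both Protoplast Induced arrays for 994 of the 996, and below both for all 924 called lower. Lack of overlap in a called gene named below thus adds little to its call. Over all tested probe sets, called or not, such a separation was found upwards for 2196 (14.3%) and downwards for 2768 (18.0%). The mean of the 4 populations passed as higher for 2911 probe sets (19.0%) and as lower for 3441 (22.4%).

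Direction went with mean signal, in part by construction, and with scaling. With the tested probe sets split by mean signal into 4 groups of nearly equal number, the brightest group held 508 calls higher and 144 lower, and the dimmest 95 higher and 231 lower. The median log2 difference was 0.16 in the brightest group and -0.22 in the dimmest. Centring each array on its median raised the median of all differences by 0.22 and gave 1682 calls higher and 552 lower, so that 75.3% of the calls were higher in place of 51.9%. All 996 probe sets called higher were called again, and 552 of the 924 called lower. Quantile normalization raised the median by 0.11 and called 938 and 778 of them again. The counts also rest on the 2 reference arrays: 534 higher and 369 lower were called without Protoplast Induced 1, and 497 and 377 without Protoplast Induced 2.

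Transcription factors of the early wound and stress response were among the genes higher in every sorted population. STZ (AT1G27730), a zinc-finger repressor induced by salt, cold and wounding, had signals of 4279 to 9473 (median 6158) on the 11 sorted arrays, 2581 and 2204 on the Protoplast Induced arrays and 132 and 48.6 on the Uninduced arrays. The sorted arrays were all above the Protoplast Induced arrays, by a log2 difference of 1.42 ± 0.17 (SE; largest adjusted p of the 4 contrasts 0.00185). WRKY22 (AT4G01250), a transcription factor of the defence response to microbial patterns, had 765 to 2794 (median 1766) on the sorted arrays, 309 and 349.6 on Protoplast Induced and 97.9 and 114 on Uninduced. Its groups did not overlap either, and the log2 difference was 2.20 ± 0.26 (largest adjusted p 0.00181). Both genes were at their lowest on the Uninduced arrays, intermediate on Protoplast Induced and highest in the sorted cells. Each gene's call held in every alternative. They were the only 2 of the 7 tested members of the list of early wound, touch and cold transcription factors with a call, both higher (28.6%, beside 6.49% over all probe sets). A list of this size is too small to set apart. Its median was 0.35 against -0.04 for all genes, and 0.43, -0.11, 0.36 and 0.75 in CLV3n, CLV3p, FILp and WUSp. The summed signal of the list was 10522 to 18231 on the sorted arrays, 7771 to 8438 on Protoplast Induced and 2019 to 2022 on Uninduced, with no overlap. That sum includes STZ and WRKY22, so it does not stand apart from their calls. ORA47, a jasmonate-linked AP2 factor, had 2135 to 5299 (median 3483) on the sorted arrays against 3229 and 2853 on Protoplast Induced and 86.01 and 73.5 on Uninduced, so its sorted and Protoplast Induced levels overlapped. WRKY53 overlapped too, with 207 to 1376 (median 427) against 549.7 and 494.

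None of the 5 tested CML genes, which encode calmodulin-like calcium sensors, was called in all 4, a count too small to set against 6.49% higher over all probe sets. Their log2 differences ran from -2.87 to 1.20, with a median of 0.61. The mean of the populations passed as higher for 1 and as lower for 1, beside 19.0% and 22.4% over all probe sets. All sorted arrays lay above both Protoplast Induced arrays for 1 and below both for 1, beside 14.3% and 18.0%. CML37 had signals of 1619.7 to 4350.2 (median 2650.4) on the sorted arrays, 1502 and 1461 on Protoplast Induced and 5.29 and 10.6 on Uninduced. Its sorted arrays lay above both Protoplast Induced arrays, and the mean of the populations differed by 0.89 ± 0.18 (adjusted p 9.61e-04), but the largest of the 4 adjusted p was 0.229. Genes of other domains that bind calmodulin or calcium were among the calls. IQD22 (AT4G23060), an IQ-domain calmodulin-binding protein, had 1878 to 5007 (median 3355) against 1182 and 1064 on Protoplast Induced, a log2 difference of 1.63 ± 0.17 (largest adjusted p 3.13e-04). SRC2 (AT1G09070), a C2-domain protein named after a cold-regulated gene of soybean, had 8659 to 16889 (median 12126) against 3113 and 3295 and 1543 and 1605 on Uninduced. No sorted array came near the Protoplast Induced pair, and the log2 difference was 1.99 ± 0.14 (largest adjusted p 5.41e-06). Of the 14 tested IQ-domain genes 2 were higher and 1 lower in all 4 (14.3% and 7.14%, beside 6.49% and 6.02% over all probe sets), so the lower share was near that of all.

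Some named genes of membrane traffic were higher as well. TET8 (AT2G23810), a tetraspanin of the plasma membrane that also marks extracellular vesicles, had signals of 11960 to 17347 (median 13943) on the sorted arrays, 4602 and 4823 on Protoplast Induced and 1447 and 1305 on Uninduced. The log2 difference was 1.58 ± 0.11 (largest adjusted p 1.68e-06). TET8 was the only call among the 6 tested tetraspanins (16.7%, beside 6.49% higher over all probe sets), a count too small to set apart. Their differences ran from -3.91 to 1.58, and the mean of the populations passed as higher for 2 and as lower for 2. ESCRT proteins sort membrane proteins into multivesicular bodies for breakdown. Of 12 tested ESCRT genes 3 were higher and 1 lower in all 4 (25% and 8.33%, beside 6.49% and 6.02% over all probe sets), with a median of 0.11. VPS2.1 (AT2G06530), an ESCRT-III subunit, had 2173 to 4379 (median 3277) against 953 and 1029, a log2 difference of 1.67 ± 0.15 (largest adjusted p 7.82e-05). ELC (AT3G12400), a subunit of ESCRT-I that binds ubiquitin, had 1276 to 2528 (median 1452) against 629 and 676, a difference of 1.32 ± 0.13 (largest adjusted p 1.81e-04). VPS60.1 (AT3G10640) was higher by 1.19 ± 0.20 and SNF7.2 (AT2G19830), also of ESCRT-III, lower by a difference of -0.99 ± 0.17, so calls ran in both directions. SEC22 (AT1G11890), a SNARE of the traffic between endoplasmic reticulum and Golgi, was the only call among 12 tested exocyst and SNARE genes, a share of 8.33% that is near the 6.49% of all probe sets. It had 1412 to 2105 (median 1757) against 777 and 767 (log2 difference 1.17 ± 0.14, largest adjusted p 1.53e-04). PRA1.B6 (AT5G07110), of the prenylated Rab acceptor family, had 75.9 to 319 (median 166) against 13.05 and 25.2, a difference of 3.02 ± 0.30. The lower of these Protoplast Induced signals is under a floor of 19.5 (the 20th percentile of all signals), and the difference was 2.73 with signals raised to it. VPS60.1 no longer passed without Protoplast Induced 1, Protoplast Induced 2 or WUSp 1 (largest adjusted p up to 0.0997). SNF7.2 failed in at least 1 population without CLV3p 3, Protoplast Induced 1 or Protoplast Induced 2, or with arrays centred on their median (largest adjusted p up to 0.197).

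**Figure D3:**
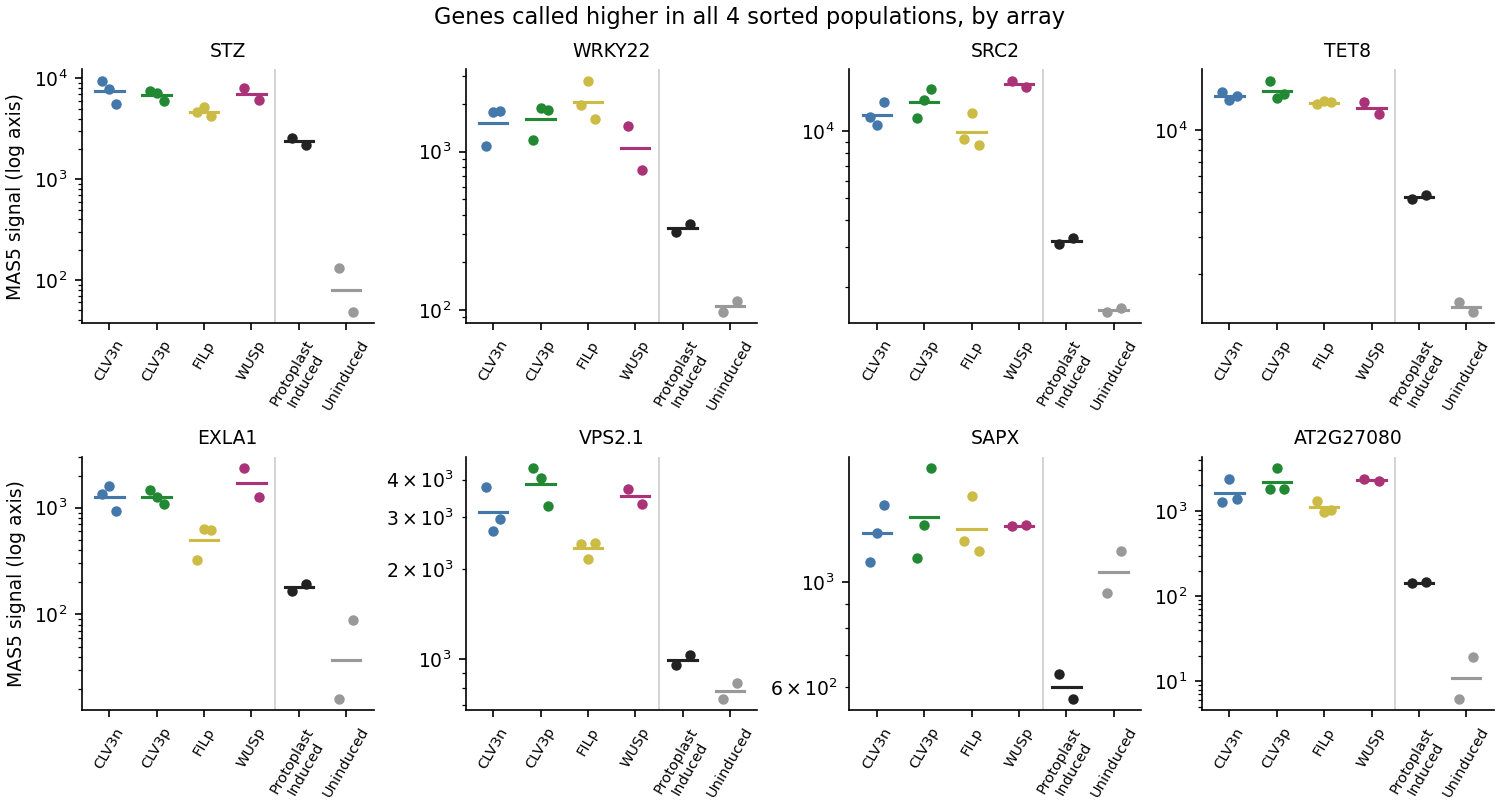
MAS5 signal (log axis) of 8 genes called higher in all 4 sorted populations, with 1 point per array and a line at the geometric mean of each group. All sorted points lie above both Protoplast Induced points in each panel, as they do for 994 of the 996 calls higher. For STZ the Protoplast Induced signals are 2581 and 2204 and the lowest sorted signal is 4279.

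Among receptors, kinases and enzymes of protein turnover, PTI1-4 (AT2G47060), a kinase of oxidative and stress signalling, had signals of 1139 to 2349 (median 1629.8) on the sorted arrays against 487 and 436 on Protoplast Induced. The log2 difference was 1.86 ± 0.18 (largest adjusted p 1.12e-04). RING1 (AT5G10380), a RING ubiquitin ligase of the plasma membrane, was higher by 2.06 ± 0.19 and ATGLR1.2 (AT5G48400), of the glutamate receptor-like channels, by 2.11 ± 0.27. GID1B (AT3G63010), a gibberellin receptor, had 280.3 to 679 (median 372) against 175 and 106, a difference of 1.63 ± 0.25. The call of GID1B ended without Protoplast Induced 2, or with a block for low bioC (largest adjusted p up to 0.193). RALF peptides, which act on receptor kinases at the cell surface, had calls in both directions. RALFL22 was higher, with 572 to 943 (median 702) against 338 and 156 and a log2 difference of 1.65 ± 0.24 (largest adjusted p 0.00109). RALFL34 (AT5G67070) was lower, with 2278 to 3880.3 (median 3154) against 5829 and 5794 and a difference of -0.94 ± 0.15, and RALFL31 (AT4G13950) was lower by a difference of -1.38 ± 0.21. These 3 calls came from 6 tested members, beside 6.49% higher and 6.02% lower over all probe sets. RALFL34 no longer passed without Protoplast Induced 1 or Protoplast Induced 2, or with a block for low bioC (largest adjusted p up to 0.137). RALFL31 failed in at least 1 population without CLV3n 3, CLV3p 3, Protoplast Induced 1 or Protoplast Induced 2, with arrays centred on their median, or without the arrays of low bioC (largest adjusted p up to 0.142).

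EXLA1 (AT3G45970) and CSLD2 (AT5G16910) were higher and XTH32 (AT2G36870) and ATCSLC08 (AT2G24630) lower among 22 tested wall genes. These shares of 9.09% each way were near those over all probe sets, 6.49% higher and 6.02% lower. EXLA1, an expansin-like protein of the wall, had signals of 323 to 2352 (median 1259) on the sorted arrays, 167 and 194 on Protoplast Induced and 16.2 and 87.8 on Uninduced. The log2 difference was 2.59 ± 0.27 (largest adjusted p 0.0027), and FILp had the lowest level of the 4 populations, with a geometric mean of 499.8. CSLD2, a cellulose synthase-like protein, had 2193 to 4711 (median 2782) against 1361 and 1257, a difference of 1.24 ± 0.16 (largest adjusted p 0.00254). XTH32, a xyloglucan-modifying enzyme, was lower, with 26.8 to 301 (median 158) against 1017 and 958 and 1043 and 935 on Uninduced, a difference of -2.86 ± 0.28 (largest adjusted p 0.0014). ATCSLC08, of the family that makes the xyloglucan backbone, was lower by a difference of -1.06 ± 0.13 and its sorted arrays stayed within 406 to 519. The remaining 18 did not pass in all 4. CCR2 (AT1G80820), cinnamoyl-CoA reductase of lignin synthesis, was higher by 1.83 ± 0.39 and UGT78D2 (AT5G17050), a flavonoid glucosyltransferase, by 1.03 ± 0.14, the 2 calls among 7 tested flavonoid and phenylpropanoid genes (28.6%). The call of CCR2 ended without CLV3n 1, Protoplast Induced 1 or WUSp 2, in a fit of all 15 arrays, or in fits of only the groups compared (largest adjusted p up to 0.133). UGT78D2 no longer passed without FILp 2, Protoplast Induced 1 or Protoplast Induced 2, or with a block for low bioC (largest adjusted p up to 0.156).

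Single genes of replication, repair and chaperones were called in all 4, in lists of 7 to 11 tested genes that are too small to set apart from the 6.49% higher and 6.02% lower of all probe sets. PRL (AT4G02060), the MCM7 helicase subunit of DNA replication, had 2539 to 4424 (median 2860.3) on the sorted arrays against 1537 and 1616 on Protoplast Induced, a log2 difference of 1.02 ± 0.20 (largest adjusted p 0.00926). It was the only call among 7 tested cell cycle and replication genes, whose median was 0.58. RAD4 (AT5G16630), of the damage recognition step of excision repair, was higher by 0.91 ± 0.16 and was the only call in all 4 among 11 tested repair genes. The mean of the populations passed as higher for 7 of those 11 and as lower for 0, beside 19.0% and 22.4% over all probe sets. The list's median was 0.54 for the mean, and 0.44, 0.97, 0.25 and 0.52 in CLV3n, CLV3p, FILp and WUSp. None of the 7 histone genes was called in all 4 (median 0.33). Of 7 tested chaperone genes, Hop1 (AT1G12270), a cochaperone that joins Hsp70 to Hsp90, was higher by 0.88 ± 0.17. The immunophilin ROF2 (AT5G48570) was lower by a difference of -1.42 ± 0.27, and so was Fes1A (AT3G09350), which acts on Hsp70, by -0.68 ± 0.14. PRL failed in at least 1 population without Protoplast Induced 1, Protoplast Induced 2 or WUSp 2, or with a block for low bioC (largest adjusted p up to 0.33). The call of RAD4 ended without Protoplast Induced 1, Protoplast Induced 2, WUSp 1 or WUSp 2, or with a block for low bioC (largest adjusted p up to 0.0891). Hop1 no longer passed without FILp 1, Protoplast Induced 1 or Protoplast Induced 2, or with a block for low bioC (largest adjusted p up to 0.386). AT5G48570 failed in at least 1 population without Protoplast Induced 2, or with a block for low bioC (largest adjusted p up to 0.0885). The call of Fes1A ended without CLV3n 3, Protoplast Induced 1, WUSp 1 or WUSp 2, with arrays centred on their median, with a block for low bioC, in fits of only the groups compared, or without the arrays of low bioC (largest adjusted p up to 0.257).

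Some of the largest shared rises belong to loci that the tables used here name by code alone, so that no role is given. AT2G27080 had signals of 966 to 3197 (median 1795) on the sorted arrays, 141 and 146 on Protoplast Induced and 6.22 and 19.3 on Uninduced, a log2 difference of 3.59 ± 0.23 (largest adjusted p 3.05e-06). AT3G08750 had 251 to 741 (median 417) against 41.9 and 46.6, a difference of 3.33 ± 0.32. Neither gene's lowest sorted array came near the Protoplast Induced pair. AT5G44060 was higher by 2.72 ± 0.17 and AT3G05110 by 3.12 ± 0.17. Of the shared rises of at least 2-fold, that of AT3G56880 was the most even across populations, with geometric means of 12308, 12283, 11621 and 12527 in CLV3n, CLV3p, FILp and WUSp against 5275. SAPX (AT4G08390), the stromal ascorbate peroxidase that removes hydrogen peroxide, was nearly as even, with 1269, 1374, 1295 and 1316 against 601 and a log2 difference of 1.13 ± 0.17 (largest adjusted p 0.00104). Its Uninduced signals were 946 and 1164, above Protoplast Induced. PIP (AT2G14260), proline iminopeptidase, was higher by 1.89 ± 0.21 and DLAH (AT1G30370), an acylhydrolase, by 1.95 ± 0.27. DLAH no longer passed in a fit of all 15 arrays (largest adjusted p up to 0.0635).

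Transcripts of the organelle genomes were often lower in all 4 and never higher. Of 69 plastid-encoded genes with a probe set of their own 64 passed the filter on low signals, and 32 of these were lower in all 4 sorted populations and 0 higher, beside 6.02% lower over all probe sets. The median log2 difference of the 64 was -1.77, and -1.56, -1.69, -2.40 and -1.41 in CLV3n, CLV3p, FILp and WUSp. The mean of the populations passed as lower for 59 of the 64, beside 22.4% over all probe sets. Of 16 mitochondrion-encoded genes 15 passed the filter, 9 were lower in all 4 and 0 higher, with a median of -2.37 and 12 lower by the mean. The differences of single genes ran from -4.08 to 0.52 in the plastid and from -3.84 to -0.25 in the mitochondrion. Counts lower in all 4 were 24 and 9 with arrays centred on their median, and 35 and 9 with quantile normalization. They were 12 and 5 without Protoplast Induced 1, 25 and 7 without Protoplast Induced 2, and 19 and 8 without WUSp 2. The part of the 25S and poly-A control signals in these differences was not tested.

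In the mitochondrion, nad9, a subunit of complex I of the respiratory chain, had the lowest difference. It had signals of 159 to 453 (median 290.1) on the sorted arrays, 4279 and 3306 on Protoplast Induced and 1283 and 1086 on Uninduced. Its log2 difference was -3.84 ± 0.31 (largest adjusted p 1.07e-05), with geometric means of 265, 208, 286 and 301 in CLV3n, CLV3p, FILp and WUSp (F test among the 4, adjusted p 0.521). The sorted arrays ran from 156 to 592 (median 290.1) for nad5, of the same complex, against 3524 and 2225 on Protoplast Induced and 954 and 782 on Uninduced, a difference of -3.39 ± 0.31 (largest adjusted p 3.39e-05). The cytochrome oxidase subunit cox2 had 76.1 to 242 (median 155) against 1055 and 817 on Protoplast Induced and 266 and 224 on Uninduced, a difference of -2.66 ± 0.31. The cytochrome maturation gene ccb452 was lower by a difference of -2.77 ± 0.30 and nad1 by -3.22 ± 0.60. On the probe sets that stand for these genes, Uninduced signals lay below Protoplast Induced and, for nad9, nad5, nad1 and ccb452, above every sorted array. The other probe set of nad5, also lower in all 4, had Uninduced signals of 201 and 196 within the sorted range of 143 to 329. Another of nad1, lower in all 4 as well, had 116 and 108 within 59.8 to 149. nad1 failed in at least 1 population without Protoplast Induced 1 or WUSp 2, or with a block for low bioC (largest adjusted p up to 0.124). By contrast nad4 had 597 to 6046 (median 1835) against 4484 and 2838, and its groups overlapped. Probe sets of 1 gene could disagree: of the 6 other probe sets of nad1, 3 were lower in all 4, while 1 lay higher on the mean, with a log2 difference of 1.10. The nuclear chromosome 2 is known to hold a copy of much of the mitochondrial genome, so these signals could include its transcripts. Most organelle transcripts lack the stable poly-A tail that standard labelling primes on, and the part of labelling in these differences was not tested.

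By complex, the plastid genes lower in all 4 were 7 of 15 tested for photosystem II, 2 of 5 for photosystem I, 3 of 5 for the cytochrome b6f complex and 3 of 6 for the ATP synthase. They were 4 of 7 for the NADH dehydrogenase-like complex, 8 of 15 for ribosomal proteins and 1 of 3 for the plastid RNA polymerase. The lowest difference was that of petL, a small subunit of the cytochrome b6f complex. It had signals of 33.2 to 176 (median 81.9) on the sorted arrays, 1696 and 781 on Protoplast Induced and 164 and 149 on Uninduced, a log2 difference of -4.08 ± 0.40 (largest adjusted p 7.22e-05). psbE and psbF, which encode the cytochrome b559 of photosystem II, and psbL and psbJ beside them were all called lower. psbF had 464 to 1267 (median 792) against 4431 and 4811, a difference of -2.53 ± 0.24 (largest adjusted p 2.44e-04), psbE a difference of -2.66 ± 0.23, psbL -2.71 ± 0.31 and psbJ -2.48 ± 0.20. No sorted array reached the Protoplast Induced level of any of the 5. The ribosomal protein gene rps3 was lower by a difference of -1.13 ± 0.17 and atpB, of the ATP synthase, by -1.62 ± 0.18 (largest adjusted p 0.00733 and 0.0312). rbcL, the large subunit of Rubisco, had 233 to 619 (median 401) against 900.2 and 661 and did not pass in all 4 (largest adjusted p 0.123). rpoA, a subunit of the plastid RNA polymerase, had 3828 to 14819 (median 9385) against 8737 and 7386, with overlapping groups.

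**Figure D4:**
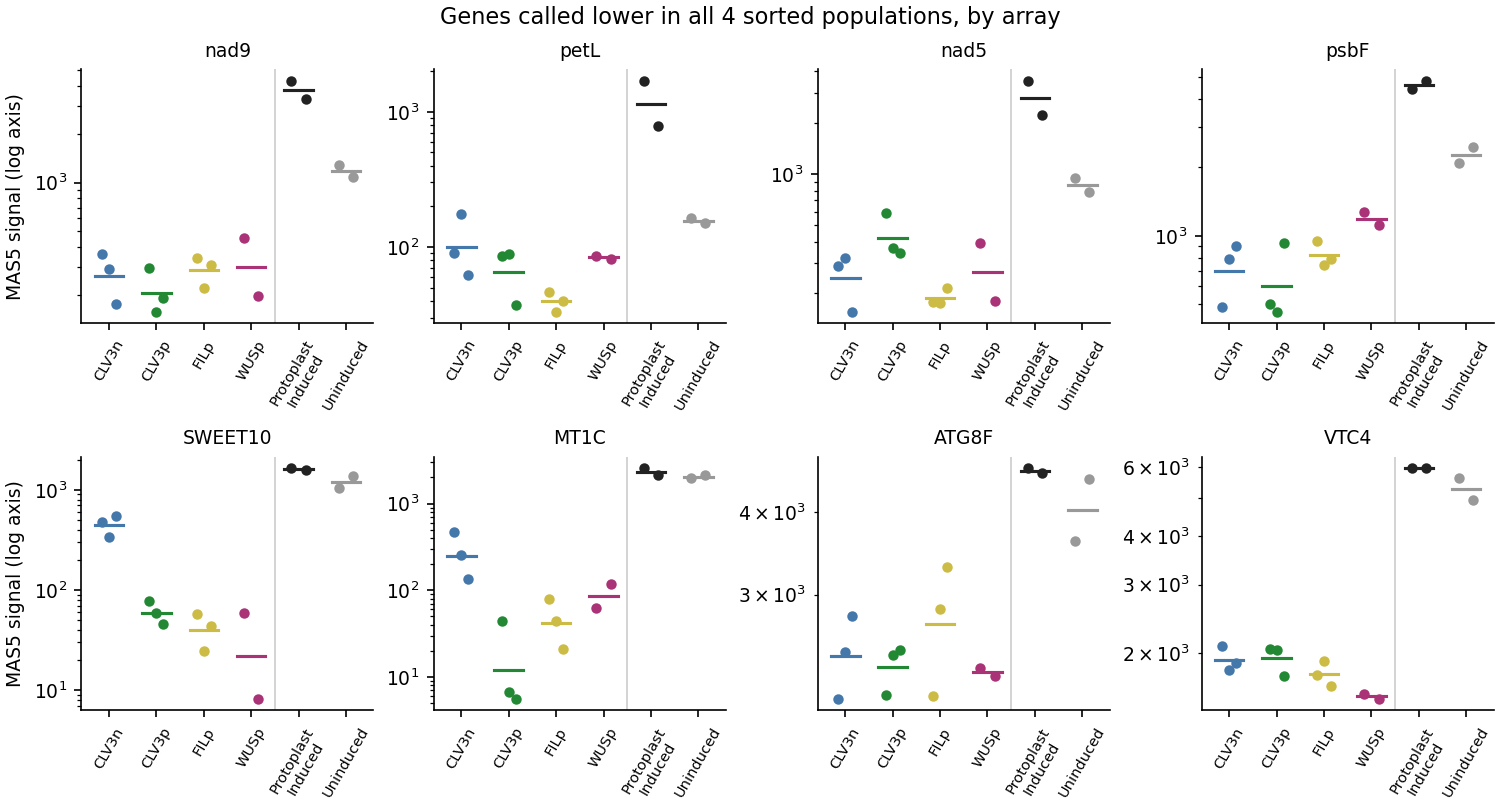
MAS5 signal (log axis) of 8 genes called lower in all 4 sorted populations, with 1 point per array and a line at the geometric mean of each group. The upper row holds organelle genes, whose Uninduced signals lie below Protoplast Induced. All sorted points lie below both Protoplast Induced points in every panel, as they do for all 924 calls lower.

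PSAN (AT5G64040) and LHCB4.3 (AT2G40100) were the nuclear genes of photosynthesis that were lower in all 4. They were 2 of 16 tested (12.5%, beside 6.02% over all probe sets), 0 were higher, and the median was -0.49. The mean of the populations passed as lower for 8 and as higher for 2, beside 22.4% and 19.0% over all probe sets. Their summed signal was 14688 to 19804 in CLV3n, 6815 to 9828 in CLV3p, 14547 to 20718 in FILp and 18380 to 19585 in WUSp, against 19040 to 20290 on Protoplast Induced and 23736 to 26219 on Uninduced. Of the 4 populations, only CLV3p lay wholly below the Protoplast Induced pair. PSAN, of photosystem I, had 382 to 1178 (median 804) against 1935 and 2199, a log2 difference of -1.47 ± 0.21, and LHCB4.3, of the light-harvesting antenna, a difference of -1.06 ± 0.21. LHCB4.1 of the same antenna had 567 to 3122 (median 2066) against 1602 and 1548 and overlapped. The summed signal of the plastid-encoded list was 73488 to 152770 on the sorted arrays, 233590 to 269210 on Protoplast Induced and 109290 to 115620 on Uninduced. That of the mitochondrion-encoded list was 4171 to 15710, 26283 to 33800 and 7561 to 8509 in the same order. For both lists the Uninduced arrays lay within the sorted range, and the Protoplast Induced arrays above all others. The call of PSAN ended without Protoplast Induced 1, Protoplast Induced 2, WUSp 1 or WUSp 2, with arrays centred on their median, with a block for low bioC, or without trend and robust (largest adjusted p up to 0.155). LHCB4.3 no longer passed without CLV3n 2, CLV3n 3, Protoplast Induced 1, Protoplast Induced 2 or WUSp 2, with a block for low bioC, or with the replicate number as a block (largest adjusted p up to 0.189).

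SWEET genes, which encode sugar carriers, made up the calls among sugar transporters: 3 of the 10 tested sugar transporters were lower in all 4 and 0 higher (30% lower, beside 6.02% over all probe sets), with a median of -0.88. SWEET10 (AT5G50790) had signals of 8.20 to 544 (median 58.4) on the sorted arrays against 1650.2 and 1587 on Protoplast Induced and 1039 and 1387 on Uninduced, a log2 difference of -4.55 ± 0.51 (largest adjusted p 0.0297) and of -4.39 with signals raised to the floor. CLV3n kept the highest level, with a geometric mean of 446, and WUSp the lowest with 21.9. SWEET17 (AT4G15920), a fructose carrier of the vacuole membrane, had 62.3 to 284 (median 239.9) against 904 and 975, a difference of -2.56 ± 0.32 (largest adjusted p 0.00402). SWEET11 (AT3G48740), which exports sucrose for phloem loading in leaves, was lower by a difference of -2.37 ± 0.29, with 43.7 to 191 (median 67.9) against 532 and 286. TMT1, a vacuolar sugar carrier, overlapped, with 288 to 673 (median 392) against 413 and 358. SWEET10 failed in at least 1 population without CLV3n 1, CLV3n 2, Protoplast Induced 1 or Protoplast Induced 2, or without CLV3n 1 and CLV3p 1 together (largest adjusted p up to 0.132). The call of SWEET11 ended without Protoplast Induced 1 (largest adjusted p up to 0.19). The list of vascular markers, of 6 genes with 3 tested, was also lower in summed signal. The summed signal of that list was 264 to 416 on the sorted arrays, 565 to 599 on Protoplast Induced and 447 to 458 on Uninduced, so every sorted array lay below both Protoplast Induced arrays. Of its 3 tested members none was called in all 4, and their differences ran from -2.315 to 0.186. All sorted arrays lay below both Protoplast Induced arrays for 2 of the 3, beside 18.0% over all probe sets. CLE41, a peptide made in the phloem, had 14.9 to 220.3 (median 59.1) against 277 and 283. The part of vascular cells in the SWEET values was not tested.

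Genes of water deficit, metal binding and redox balance made up another part of the lower calls. Of 8 tested genes of abscisic acid and water deficit response 3 were lower and 0 higher (37.5% lower, beside 6.02% over all probe sets). HIRD11 (AT1G54410), a small dehydrin, had 345 to 2964 (median 1681) on the sorted arrays against 6197 and 5074 on Protoplast Induced, a log2 difference of -2.18 ± 0.17 (largest adjusted p 0.00127). COR27 (AT5G42900), a cold-regulated gene tied to the clock, was lower by a difference of -1.30 ± 0.23, and LEA27 (AT2G46140) by -1.52 ± 0.27. LTI30, a dehydrin of cold and drought, did not pass in all 4. It had 107 to 4625 (median 785) against 118 and 74.1, and the mean differed by 3.08 ± 0.41 (adjusted p 8.04e-05). MT1C (AT1G07610), a metallothionein that binds metal ions, had 5.57 to 471 (median 63.1) against 2568 and 2129, a difference of -5.35 ± 0.69, or -5.07 with the 2 sorted arrays under the floor raised to it. VTC4 (AT3G02870), a phosphatase of ascorbate synthesis, had 1527 to 2089 (median 1812) against 5973 and 5966 and 5635 and 4939 on Uninduced. Its difference was -1.74 ± 0.12 (largest adjusted p 2.12e-06), and the F test among populations did not pass (adjusted p 0.218). SRX (AT1G31170), sulfiredoxin, which restores oxidized peroxiredoxin, was lower by a difference of -1.53 ± 0.24, and ALDH11A3 (AT2G24270), a glyceraldehyde-phosphate dehydrogenase of the cytosol, by -2.77 ± 0.27. Of 12 tested glutathione transferases and antioxidant enzymes, SAPX was the 1 higher and GSTL3 (AT5G02790) the 1 lower, at 8.33% each near the shares over all probe sets. SRX no longer passed with a block for low bioC (largest adjusted p up to 0.0516). COR27 failed in at least 1 population without Protoplast Induced 2 or WUSp 2, or with a block for low bioC (largest adjusted p up to 0.134). The call of AT2G46140 ended without CLV3n 3, Protoplast Induced 1 or Protoplast Induced 2, or without the arrays of low bioC (largest adjusted p up to 0.148). MT1C no longer passed without Protoplast Induced 1 (largest adjusted p up to 0.0613). ALDH11A3 failed in at least 1 population without WUSp 2, or with the 11 sorted arrays as 1 group (largest adjusted p up to 0.0982). The call of GSTL3 ended without Protoplast Induced 1, Protoplast Induced 2 or WUSp 2, or with arrays centred on their median (largest adjusted p up to 0.174).

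Some genes of the ATG8 family, whose proteins coat the autophagosome, were lower. Of 10 tested genes of the family, counting the conjugating enzyme ATG3, 3 were lower and 0 higher in all 4 (30% lower, beside 6.02% over all probe sets), the mean passed as lower for 7 (beside 22.4% over all), and the median was -0.77. ATG8F (AT4G16520) had signals of 2084 to 3306 (median 2425) on the sorted arrays, 4664 and 4581 on Protoplast Induced and 3619.8 and 4496 on Uninduced, a log2 difference of -0.93 ± 0.16 (largest adjusted p 0.00482). ATG8B (AT4G04620) was lower by a difference of -1.27 ± 0.21 and ATG8E (AT2G45170) by -1.16 ± 0.24. ATG8G did not pass, with 454 to 947 (median 579) against 667 and 709. This list was written after some of its values had been seen. ATG8B no longer passed with a block for low bioC (largest adjusted p up to 0.05). ATG8E failed in at least 1 population without Protoplast Induced 1 or WUSp 2, or with a block for low bioC (largest adjusted p up to 0.156). AKINBETA1 (AT5G21170), a regulatory subunit of the SnRK1 energy-sensing kinase, was higher by 0.98 ± 0.18. The call of AKINBETA1 ended without Protoplast Induced 2 or WUSp 1, or with a block for low bioC (largest adjusted p up to 0.151).

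Some of the deepest drops among nuclear genes were of genes whose signals fell near the background on some or most sorted arrays. The same floor of 19.5 was used to bound them. AT4G23670 had 1.56 to 597 (median 88.2) on the sorted arrays, of which 3 were under the floor, against 5639 and 4467 on Protoplast Induced and 5749.6 and 7237 on Uninduced. Its log2 difference was -6.63 ± 0.63 as measured and -5.95 with signals raised to the floor. The arrays under the floor were those of CLV3p, where the difference was -10.7. It was -4.21 in CLV3n, -4.42 in FILp and -7.14 in WUSp. AT1G67600 had 6.68 to 43.9 (median 9.13) against 531 and 649, with 8 sorted arrays under the floor and a floored difference of -4.73. LCR68 (AT2G02130), a small cysteine-rich protein of the defensin-like kind, stayed above the floor, with 26.1 to 1209 (median 426) against 5539.5 and 5118 and a difference of -4.36 ± 0.29 (largest adjusted p 1.14e-04). AT4G13800 had 33.1 to 84.9 (median 50.4) against 721 and 967, a difference of -3.96 ± 0.35, with geometric means of 68.8, 51.7, 49.02 and 47.7 in CLV3n, CLV3p, FILp and WUSp. BGLU44 (AT3G18080), a beta-glucosidase, was lower by a difference of -3.03 ± 0.34. BGLU44 no longer passed without WUSp 2 (largest adjusted p up to 0.0863). One of the 5 most even drops was at AT5G53940, with geometric means of 434, 419, 473 and 485 in CLV3n, CLV3p, FILp and WUSp against 1746 in Protoplast Induced.

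For lists of cell identity and hormone response, counts of shared calls were near the 6.49% higher and 6.02% lower of all probe sets, while medians differed between populations. None of 12 tested auxin genes and none of 6 shoot meristem regulators was called in all 4. Of 11 tested lateral organ regulators TCP15 (AT1G69690), a transcription factor of organ growth, was the only call (9.09%), lower by a difference of -1.77 ± 0.31. The list's median was 1.14 in FILp and -0.96 and -1.34 in CLV3p and WUSp. Nitrate transport and assimilation had a median of -1.88 over 5 tested genes with no call in all 4, and the population medians ran from -3.21 in CLV3p to -0.43 in WUSp. Cytochrome P450 genes had a median of -1.67, and of -4.15 in CLV3p. Of 9 tested, 2 were lower in all 4 (22.2%, beside 6.02% over all probe sets), a count too small to set apart. CYP71B26 had 5.78 to 34.3 on the sorted arrays, 6 of them under the floor, against 205 and 201 on Protoplast Induced. Its call ended without either WUSp array, with either other scaling, or with a block for low bioC (largest adjusted p 0.166 with that block). The call of CYP71B28 ended without CLV3n 1 or any single FILp, WUSp or Protoplast Induced array. It also ended with a block for low bioC (largest adjusted p 0.337), without the filter on low signals and with either other scaling. No epidermis or trichome marker was called among 4 and 1 tested. The 2 root genes did not pass the filter and summed to 20.4 to 94.6 on the sorted arrays. TCP15 failed in at least 1 population without CLV3n 1, CLV3n 3, FILp 1, Protoplast Induced 1 or Protoplast Induced 2, with a block for low bioC, or without the arrays of low bioC (largest adjusted p up to 0.174).

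**Figure D5:**
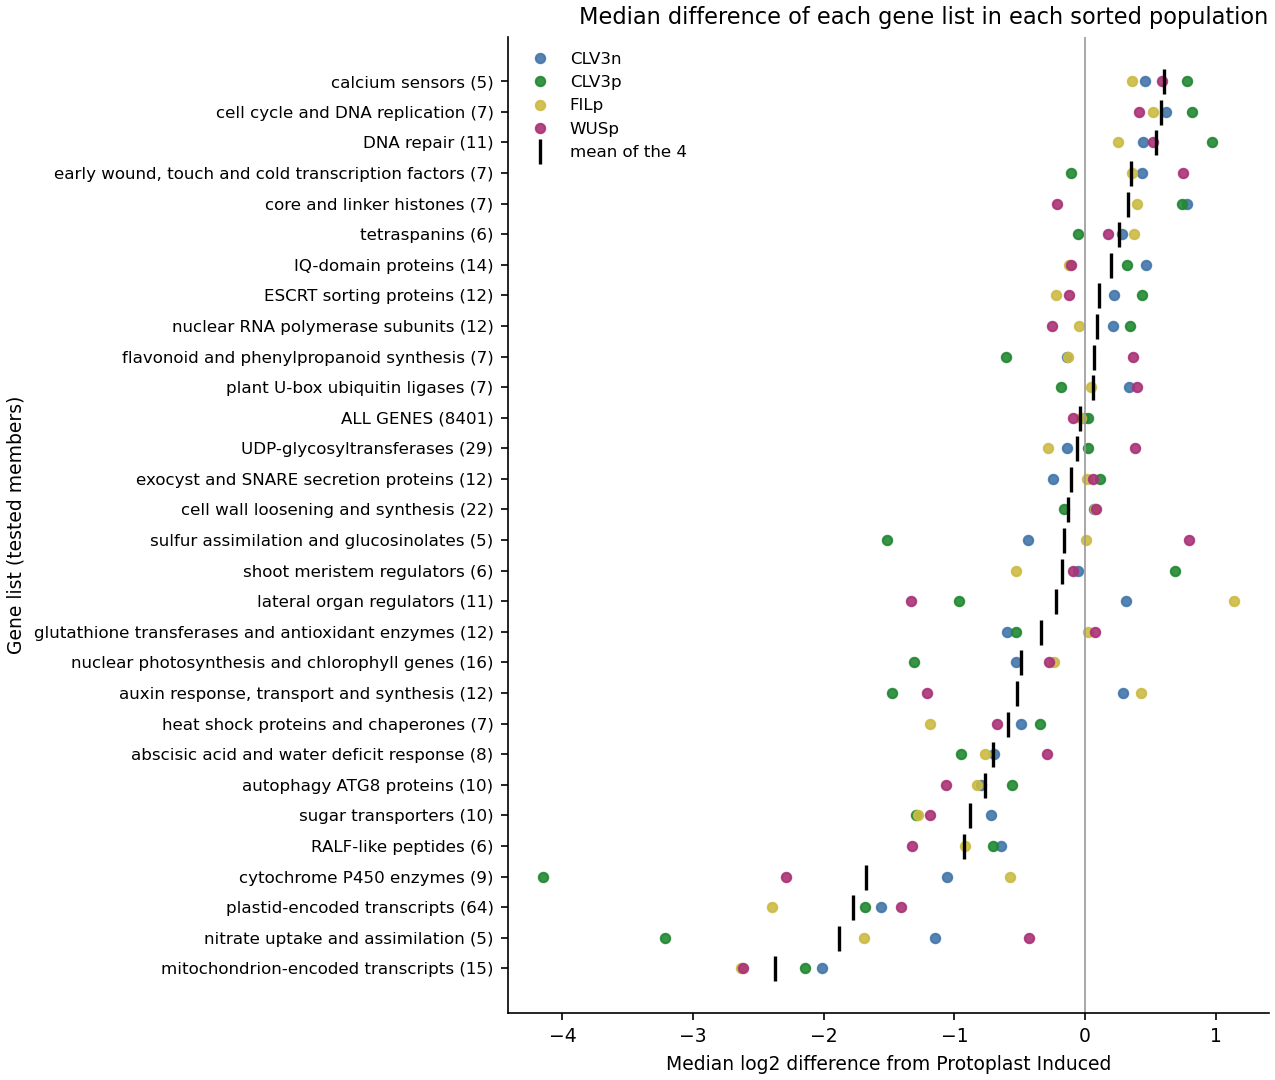
Median log2 difference from Protoplast Induced (horizontal axis) of each gene list with at least 5 tested members, by sorted population (coloured points) and for the mean of the 4 (black bars). The mitochondrion-encoded and plastid-encoded lists lie below 0 in all 4 populations, at -2.37 and -1.77 for the mean, while all genes lie at -0.04.

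A shift shared by the 4 populations was not always of the same size in each. The moderated F test of the difference among the 4, which does not use the Protoplast Induced mean, passed for 5909 of all tested probe sets (38.5%). It passed for 341 of the shared higher calls (34.2%) and 415 of the shared lower calls (44.9%), beside which the first share lay lower and the second higher. Of the 64 plastid-encoded genes it passed for 19, and of the 15 mitochondrion-encoded genes for 1. The medians of the shared calls were 1.10, 1.22, 1.08 and 1.12 upwards in CLV3n, CLV3p, FILp and WUSp. Downwards they were -1.34, -1.57, -1.35 and -1.44. These probe sets were chosen for passing in all 4 against the same 2 reference arrays. Close medians follow in part from that choice and do not measure evenness. At the threshold, the last higher call had a largest adjusted p of 0.04962 and the next probe set 0.05003.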

How the data were processed

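RNA from an RNeasy kit was hybridised to Affymetrix arrays after biotin labelling, as the labels describe. The deposited values are MAS5 signals, an intensity on a linear scale that the authors computed, per the submitters' processing notes, which give no version. Of 22810 probe sets 64 controls were set aside. Signals were used as log2, with no further normalization. Probe sets entered the tests when at least 2 of the 13 arrays had a signal over that array's 40th percentile. The 2 Protoplast Induced arrays alone can thus admit a probe set that is low on every sorted array.

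limma 3.58.1 in R 4.3.3 (lmFit, eBayes with trend and robust, two-sided) was fitted with 1 coefficient per group, and p-values were adjusted by Benjamini-Hochberg within each contrast. Errors are standard errors of that fit over the 11 sorted and 2 Protoplast Induced arrays. The fit was also run on simulated data with independent noise, no differences between populations and no shifts of whole arrays. That run therefore does not cover errors that arrays share. The labels do not say whether replicates are separate preparations, so p-values measure the spread between these arrays, and the small number of arrays limits the precision. Same-numbered arrays of different groups had residual correlations of -0.097 to 0.325 (median 0.012), which does not pair them over the groups. Those between CLV3n and CLV3p were 0.325, 0.038 and 0.324 for numbers 1, 2 and 3, with -0.300 and -0.320 for numbers 1 and 3 crossed. Alternatives covered scaling, filter, floor, spread estimate, blocks, groups fitted and each array left out.

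Genes were named from the platform table, which pairs 13513 probe sets with 1 gene, 503 with several and 8730 with none, and 13436 matched RefSeq by gene ID. The probe set with the highest mean signal stands for a gene. Named are the largest and the most even shared shifts, up to 4 called members per list by size, marker genes and, added after values were seen, the 15 largest shifts each way of nuclear genes with a symbol. The largest, the most even and those 15 were drawn only from calls whose sorted arrays did not overlap the Protoplast Induced arrays. That separation is therefore no further support for them. Outside that rule, WRKY53, ORA47, CML37, LTI30, TMT1, LHCB4.1, rpoA, rps3, atpB, rbcL, psbJ, nad4, cox2, CLE41 and ATG8G were picked after their values were seen, and their calls were not followed under the alternatives. Members and lists were chosen with earlier results of these data known, and 10 family lists (tetraspanin, ESCRT, secretion, ATG8, U-box, UDP-glycosyltransferase, RALF, RNA polymerase, IQ-domain and jacalin genes) were added after values were seen. They support nothing beyond description. No sequence was used.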

Additional observations from a re-analysis of the deposited data

Results flagged for a closer look

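For 43 of the 102 named genes called in all 4, the difference from Protoplast Induced also differed in size among the populations (limma's moderated F test, Benjamini-Hochberg over all tested probe sets). The same test passed for 38.5% of all tested probe sets, so such a difference is not particular to these genes. Adjusted p of that test are given below, with genes grouped by the population of the extreme level. The groups have 2 or 3 arrays, so no array was tested as standing apart from its group. Of genes called higher, CLV3n had the highest geometric mean for STZ, with an adjusted p of 0.024. Of genes called higher, CLV3p had the highest geometric mean for PRA1.B6, RING1, VPS2.1, UGT78D2, RAD4 and VPS60.1, with adjusted p of 0.00973, 0.036, 0.00926, 1.29e-04, 0.0184 and 0.0227 in that order. CLV3p was also highest for NRPA1 and NRPC1, with adjusted p of 0.0175 and 0.00714 in that order. Of genes called higher, WUSp had the highest geometric mean for AT2G27080, AT3G05110, AR781, SRC2, EXLA1 and PIP, with adjusted p of 0.0127, 7.24e-05, 0.0209, 0.0146, 0.00136 and 0.0144 in that order. WUSp was also highest for IQD22, CSLD2, ELC and UGT87A2, with adjusted p of 0.00318, 0.0182, 0.00152 and 7.78e-05 in that order. EXLA1 may serve as an example, with geometric means of 1254, 1258, 499.8 and 1720.4 in CLV3n, CLV3p, FILp and WUSp against 179.7 in Protoplast Induced. Of genes called lower, CLV3p had the lowest geometric mean for AT4G23670, JAL23, MT1C, AT4G22490, LCR68 and XTH32, with adjusted p of 1.49e-05, 0.0146, 0.00272, 0.00132, 1.71e-07 and 5.82e-05 in that order. CLV3p was also lowest for BGLU44, SWEET17, FMO, ALDH11A3, GSTL3 and CYP71B28, with adjusted p of 1.76e-05, 0.00137, 0.0378, 3.08e-07, 2.98e-04 and 2e-05 in that order. CLV3p was also lowest for PSAN, TCP15, GT72B1 and UGT74B1, with adjusted p of 0.00523, 9.27e-04, 4.36e-05 and 0.0105 in that order. Of genes called lower, FILp had the lowest geometric mean for AT3G21600 and SNF7.2, with adjusted p of 0.0219 and 0.0165 in that order. Of genes called lower, WUSp had the lowest geometric mean for AT2G06180, SWEET10, SWEET11, AT1G54410, AT2G46140 and RALFL31, with adjusted p of 0.00824, 1.83e-04, 0.00368, 4.48e-07, 0.0474 and 6.32e-04 in that order. ALDH11A3 had geometric means of 1156, 101, 934 and 1621 against 4435, and LCR68 of 949.5, 39.1, 399 and 304 against 5325.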

How the results depend on the processing

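The 2 reference arrays limit these results most. With each of the 13 arrays left out in turn, calls higher in all 4 ran from 497 to 1056 and lower from 369 to 1023, and the lowest counts came without a Protoplast Induced array. The ranges were 1213 to 2572 higher and 1083 to 2728 lower for CLV3n, 1891 to 3298 and 2206 to 3573 for CLV3p, 1274 to 2641 and 1245 to 2902 for FILp, 1265 to 2331 and 1383 to 2791 for WUSp, and 1450 to 3049 and 1572 to 3623 for the mean. Probe sets that differed among populations ran from 4211 to 6160, and numbered 3639 without WUSp. Of the 102 named genes called in all 4, 57 kept the call without each array in turn and 53 in every alternative, and none changed direction. Array weights gave 1527 higher and 1576 lower in all 4, 3779 and 4191 in FILp, 3348 and 4082 in WUSp, and 4382 higher by the mean. Centring on the median gave 1682 and 552 in all 4, 5110 higher in CLV3p, 3732 and 1789 in FILp, 3573 higher in WUSp and 4493 by the mean. The 11 sorted arrays as 1 group gave 1654 higher and 1552 lower by the mean. Fits of only the groups compared gave 1393 lower in all 4 and 3935 in WUSp. A block for arrays with bioC under 500 gave 1604 and 1626 in FILp, and 804 and 715 in all 4; without those arrays, and so without FILp, it was 1031 and 1051 in 3 populations. The cause of these moves was not tested, except that the last leaves out a population. Smaller moves in all 4 were 990 and 1098 with the floor, 918 and 837 without the filter, and 883 and 900 without trend and robust. Without CLV3n 1 and CLV3p 1, the counts were 1184 and 1058. A fit of all 15 arrays gave 1049 and 1015, and quantile normalization 1255 and 875. The replicate number as a block (the labels do not pair the arrays) gave 1023 and 939, and ended the calls of scpl31, CYP71B28, LHCB4.3 and NRPA1 among the named genes. Of 33 lists with at least 3 tested genes, 10 had a median that changed sign in some alternative, 5 of them with centring. The plastid-encoded and mitochondrion-encoded lists were not among them. Many low signals are near background, where differences are not ranked.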

Other observations

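Sugar-conjugating enzymes were called at nearly the share of all probe sets. Of 29 tested UDP-glycosyltransferases 2 were higher and 2 lower in all 4 (6.9% each, beside 6.49% and 6.02% over all probe sets), with a median log2 difference of -0.06. UGT87A2 had signals of 241 to 892 (median 346) on the sorted arrays against 179 and 142 on Protoplast Induced, a difference of 1.45 ± 0.18 (largest adjusted p 0.00288). GT72B1, which conjugates phenolic compounds, was lower, with 41.6 to 228 (median 137) against 474 and 405 and a difference of -1.92 ± 0.24. UGT74B1, of glucosinolate synthesis, was lower by a difference of -1.16 ± 0.17, and no member of the sulfur and glucosinolate list of 5 tested genes was called. The call of UGT87A2 ended without Protoplast Induced 2 (largest adjusted p up to 0.0602). GT72B1 no longer passed without Protoplast Induced 1 or Protoplast Induced 2 (largest adjusted p up to 0.107). UGT74B1 failed in at least 1 population without Protoplast Induced 1, WUSp 1 or WUSp 2, or with arrays centred on their median (largest adjusted p up to 0.262). Of 12 tested subunits of nuclear RNA polymerases 2 were higher and 1 lower (16.7% and 8.33%). NRPC1, the largest subunit of RNA polymerase III, had 301 to 686 (median 409.7) against 245 and 237, a difference of 0.88 ± 0.16. NRPB6B, a small subunit, had 655 to 1336 (median 1055) against 2209.6 and 2029, a difference of -1.09 ± 0.18. The call of NRPC1 ended without FILp 1, FILp 3, Protoplast Induced 1, Protoplast Induced 2 or WUSp 2, or with a block for low bioC (largest adjusted p up to 0.137). NRPB6B no longer passed without Protoplast Induced 1, or with arrays centred on their median (largest adjusted p up to 0.0988).

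The jacalin-related lectin JAL23 had 1.84 to 112 (median 24.6) on the sorted arrays against 926 and 410.4 on Protoplast Induced and 877 and 622 on Uninduced, with 5 sorted arrays under the floor and a floored log2 difference of -4.28. JAL23 failed in at least 1 population without CLV3n 1, CLV3n 3, Protoplast Induced 1, Protoplast Induced 2, WUSp 1 or WUSp 2 (largest adjusted p up to 0.213). None of the 7 tested U-box ubiquitin ligases and none of the 3 tested cytokinin genes was called in all 4 (medians 0.06 and 0.33).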
